A study of Mus musculus with 37 samples.

Results

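The genes described here encode milk proteins and parts of the milk secretory machinery. They are 10 genes, chosen by name: the caseins Csn2, Csn3, Csn1s1 and Csn1s2a, the whey proteins Wap and Lalba, the defence proteins Ltf and Lcn2, and the milk fat globule proteins Btn1a1 and Xdh. Each was read through the array probe set annotated with its symbol alone, and every one of the 10 had 1 such probe set. They are 10 of 18820 genes with a probe set of their own on the array, and 7 of them were among the 13174 genes tested, those whose mean over all arrays lay above the 30th percentile (log2 4.04). Csn1s1, Csn1s2a and Wap lay below that limit with means of 3.98, 3.15 and 3.93, and Csn2 passed it narrowly with a mean of 4.05.

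Mammary glands of BALB/c females (BALB/cJ) gave total RNA for 37 Affymetrix arrays. Mice received 100 cGy of gamma rays, a sparsely ionizing radiation, or 30 or 10 cGy of silicon (Si) ions at 350 MeV/amu, heavy charged particles that ionize densely along their track, or were sham irradiated, all at 10 weeks of age. Glands were collected at 1, 4 and 12 weeks after exposure, that is at 11, 14 and 22 weeks of age, with 3 arrays in each of the 12 treatment and week groups apart from sham at week 4, which had 4. In every mouse, sham included, the inguinal gland of the opposite side had been removed earlier, and the intact gland was measured. No genetic alteration was part of the design, and nothing in the labels mentions mating, pregnancy or nursing. The labels number the samples of a group without saying that each came from a separate animal, so each p-value reflects only how far the samples of a group lie apart, which may be technical. Week 1 tissue was collected at the irradiation site and week 4 and week 12 tissue after the mice had been moved back, so that time since exposure, age and place of collection cannot be told apart in any comparison between weeks.

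Milk protein genes are switched on in the luminal cells of the gland, chiefly in pregnancy and nursing, when prolactin acts through its receptor, the kinase JAK2 and the transcription factor STAT5. The caseins form the micelles of milk, Lalba is the regulatory part of lactose synthase, Wap is the main whey protein of mouse milk, and Btn1a1 and Xdh take part in enclosing fat droplets as they leave the cell. Ltf and Lcn2 bind iron or iron carriers, and both are also made by neutrophils and by epithelium under stress or during the regression of the gland after weaning.

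RefSeq (mouse build GRCm38.p6) gives promoter windows, from 250 bases before to 50 bases after the annotated start, for 7 of the 10 genes: Csn2, Csn1s1, Csn1s2a, Wap, Lalba, Ltf and Lcn2. They were searched for TTCNNNGAA, the pattern of 9 letters that STAT5 is known to bind, which reads the same on both strands. Csn2, Csn1s1 and Csn1s2a held it and Wap, Lalba, Ltf and Lcn2 did not, while 8.3% of all 32851 windows held it. The 150 bases before the start of Csn2 (chr5:87699426-87699575, minus strand) and of Csn1s1 (chr5:87666058-87666207, plus strand) are shown because the values of the 2 genes correlated closely over the arrays below, with the match in capitals.
Csn2: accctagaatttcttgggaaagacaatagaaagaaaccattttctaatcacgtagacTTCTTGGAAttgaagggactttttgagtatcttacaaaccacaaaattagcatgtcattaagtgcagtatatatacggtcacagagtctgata
Csn1s1: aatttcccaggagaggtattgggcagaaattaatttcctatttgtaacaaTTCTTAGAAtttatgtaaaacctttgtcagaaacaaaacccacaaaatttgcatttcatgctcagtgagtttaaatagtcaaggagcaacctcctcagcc
The matches began 93 bases before the start in Csn2 and 100 bases before it in Csn1s1, and the match in Csn1s2a began at base 21 after its start. Csn1s1, Csn2 and Csn1s2a are consecutive protein-coding genes on chromosome 5, followed by Csn1s2b, and Csn3 lies on the same chromosome with other neighbours. A match of letters is a description and says nothing of binding in these glands.

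The arrays were alike as a whole, with pairwise correlations over all genes from 0.949 to 0.994 and a median of 0.984. Those least like the rest were 2 sham arrays, replicate 1 of week 4 and replicate 3 of week 1. Replicate 1 of week 4 had the highest value of the series in 11.2% and the lowest in 12.1% of genes, where an even spread would give 2.70%. Luminal markers were present in every gland, with all 18 matched genes of the list above the limit, and the mean of that list ran from 7.45 to 8.64 at week 1, from 7.70 to 8.48 at week 4 and from 7.44 to 8.67 at week 12. The amount of other tissue varied more: the mean of 15 skeletal muscle genes ran from 4.32 to 10.01 over the arrays and that of 18 lymphocyte genes from 3.95 to 8.26. In bulk tissue, fewer cells of a type and less RNA per cell cannot be told apart.

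Csn1s1, which encodes alpha-S1 casein, lay near the bottom of the scale in most glands and stood far above it in a handful. Its values at week 1 were 5.45, 3.47 and 3.14 in gamma glands, 2.87, 3.02 and 3.73 in 30 cGy Si glands, 2.87, 3.21 and 3.11 in 10 cGy Si glands, and 3.42, 5.55 and 3.34 in sham glands (log2 RMA values, replicates 1 to 3). At week 4 they were 3.26, 9.77 and 4.42 in gamma glands, 3.36, 5.06 and 5.0 in 30 cGy Si glands, 3.18, 3.22 and 4.25 in 10 cGy Si glands, and 4.41, 3.57, 3.50 and 2.96 in sham glands. The high glands thus fell in gamma, 30 cGy Si and sham groups, and only gamma week 4 replicate 2 came near 10. At week 12 Csn1s1 stood at 3.06, 5.71 and 3.68 in gamma glands, 3.10, 7.10 and 3.08 in 30 cGy Si glands, 4.72, 3.43 and 4.08 in 10 cGy Si glands, and 3.98, 3.54 and 2.78 in sham glands. Over the 37 arrays the median was 3.47 and 6 arrays lay above 5.

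Csn2, which encodes beta casein, was high in some of the same glands, with 3 arrays above 5 in both genes. Its values at week 1 were 5.17, 3.74 and 3.56 in gamma glands, 3.51, 3.46 and 4.21 in 30 cGy Si glands, 3.52, 3.79 and 3.59 in 10 cGy Si glands, and 3.87, 4.02 and 3.74 in sham glands. At week 4 they were 3.57, 8.11 and 4.34 in gamma glands, 3.88, 4.61 and 4.51 in 30 cGy Si glands, 3.60, 3.80 and 3.97 in 10 cGy Si glands, and 6.01, 3.75, 3.47 and 3.26 in sham glands. Gamma week 4 replicate 2 was again the highest, and the second highest was the sham week 4 array that stood apart from the rest. At week 12 Csn2 was at 3.92, 3.86 and 3.57 in gamma glands, 3.50, 5.68 and 3.61 in 30 cGy Si glands, 3.86, 3.68 and 3.93 in 10 cGy Si glands, and 3.95, 3.89 and 3.51 in sham glands. In no comparison did the Csn2 values of an irradiated group lie wholly outside those of sham in the same week, and 4 arrays lay above 5.

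Csn1s2a, an alpha-S2 casein, had a median of 2.90 over the 37 arrays and exceeded 5 in 3 of them. These were gamma week 4 replicate 2 at 6.12, 30 cGy Si week 12 replicate 2 at 5.25 and sham week 4 replicate 1 at 5.02. At week 1 it ran from 2.58 to 3.16 in all 12 arrays. The remaining week 4 values reached at most 4.01, in 30 cGy Si replicate 3, and the remaining week 12 values at most 3.35.

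Wap behaved differently from the 3 caseins at week 4. It lay between 3.38 and 4.30 in 36 of the 37 arrays and at 6.10 in sham week 4 replicate 1. In gamma week 4 replicate 2, where Csn1s1 and Csn2 peaked, Wap was at 4.15, and in 30 cGy Si week 12 replicate 2 it was at 4.00. The sham week 4 array with the high Wap also had the lowest week 4 values of Csn3 (7.51), Lalba (4.02), Btn1a1 (5.99), Ltf (7.97) and Lcn2 (9.46). Its luminal list mean of 7.70 and basal list mean of 6.6 were the lowest of week 4, and its brown adipocyte list mean of 6.38 was the highest. The part of that tissue mix in its casein and Wap values was not tested.

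**Figure D1:**
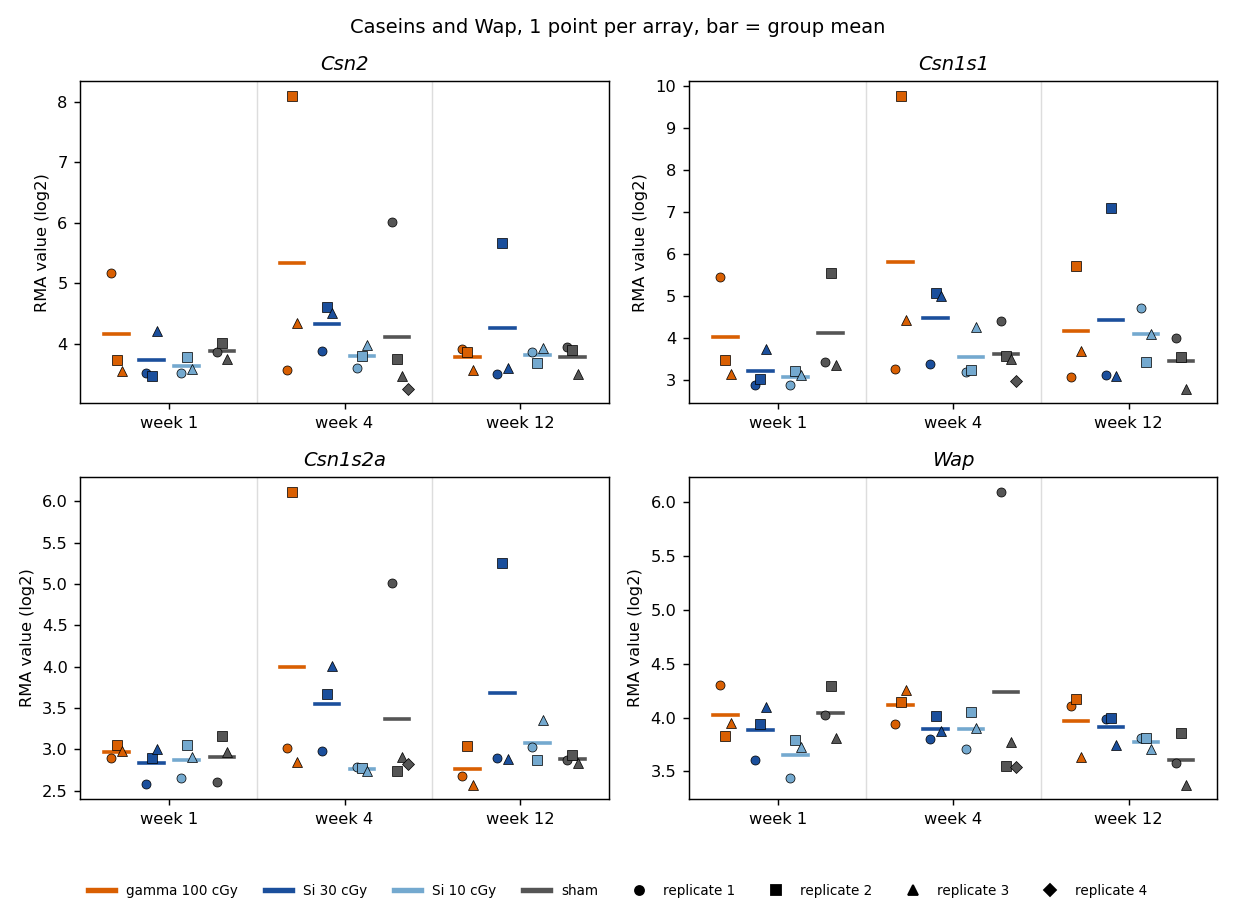
RMA values (log2, vertical axis, a separate scale per gene) of Csn2, Csn1s1, Csn1s2a and Wap in each array, by week along the horizontal axis and by treatment (gamma 100 cGy, Si 30 cGy, Si 10 cGy, sham from left to right); marker shapes are replicate numbers and bars are group means. Most points lie low, gamma week 4 replicate 2 stands at 8.11 for Csn2 and 9.77 for Csn1s1, and sham week 4 replicate 1 stands alone for Wap at 6.10.

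Epithelial markers were set beside the glands with high caseins. Gamma week 4 replicate 2 had the highest luminal list mean (8.48) and the highest basal list mean (8.01) of week 4. In 30 cGy Si week 12 replicate 2 these means were 8.45 and 7.44, inside the week 12 ranges of 7.44 to 8.67 and 7.13 to 7.74. Gamma week 1 replicate 1, with Csn1s1 at 5.45, had a luminal mean of 7.90 and the highest basal mean of week 1 (7.70). Sham week 1 replicate 2, with Csn1s1 at 5.55, had the highest luminal mean of week 1 (8.64). In gamma week 12 replicate 2, with Csn1s1 at 5.71, the luminal mean was 8.31, and in 30 cGy Si week 4 replicate 2, with Csn1s1 at 5.06, it was 8.38. Over all 37 arrays Csn1s1 correlated with the luminal list mean at r = 0.42 and rho = 0.50 (permutation test, adjusted p = 0.029 and 0.010 over 20 relations with the luminal and basal lists), and at r = 0.40 without the 2 arrays farthest from the median. The relation was of similar size within weeks 1, 4 and 12, with r = 0.42, 0.43 and 0.46. For Csn2 the same relation was at r = 0.18 and rho = 0.31 (permutation test, adjusted p = 0.38 and 0.10). With the basal list mean Csn1s1 had r = 0.48 and rho = 0.53 (permutation test, adjusted p = 0.021 and 0.0063), and r = 0.61 without the 2 farthest arrays. Within weeks 1, 4 and 12 that r was 0.62, 0.56 and 0.16, so the relation was not particular to the luminal list.

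Csn3, which encodes kappa casein, was well above the limit in every gland without the few far higher glands of the other caseins. At week 1 it stood at 8.73, 7.81 and 7.62 in gamma glands, 7.22, 8.39 and 8.15 in 30 cGy Si glands, 8.20, 8.30 and 8.13 in 10 cGy Si glands, and 8.62, 8.56 and 7.49 in sham glands. At week 4 it stood at 8.56, 8.81 and 8.76 in gamma glands, 8.12, 8.68 and 9.12 in 30 cGy Si glands, 8.90, 9.12 and 8.69 in 10 cGy Si glands, and 7.51, 8.86, 8.89 and 8.22 in sham glands. Most week 4 values thus lay above most week 1 values, with sham week 4 replicate 1 as the lowest of its week. At week 12 Csn3 was at 8.46, 8.31 and 8.54 in gamma glands, 8.25, 9.18 and 8.42 in 30 cGy Si glands, 9.01, 8.62 and 8.47 in 10 cGy Si glands, and 7.94, 8.41 and 8.29 in sham glands.

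Averaged over the 4 treatments, Csn3 was higher at week 4 than at week 1, by 0.56 ± 0.17 on the log2 scale (SE), a 1.47-fold difference with a 95% interval from 1.15 to 1.87 (limma, adjusted p = 0.016). It was the 1 gene of the 7 tested that passed between these weeks, where 25.8% of all genes did and 11% did so upwards, so the share is near that of the array. By treatment, the week 4 minus week 1 difference of Csn3 was 0.66 in gamma, 0.72 in 30 cGy Si, 0.70 in 10 cGy Si and 0.15 in sham glands (SE 0.35 in the irradiated groups and 0.32 in sham), none of which passed alone. Of all genes 3.14%, 4.24%, 2.69% and 5.88% passed in these 4 comparisons, and 1.14%, 1.18%, 0.759% and 1.93% did so upwards. The 2 arrays that stood apart were sham glands of these 2 weeks. Each had the lowest Csn3 of its sham group, at 7.49 (week 1 replicate 3) and 7.51 (week 4 replicate 1). They shift the sham difference in opposite directions. The other sham glands were at 8.62 and 8.56 at week 1 and at 8.86, 8.89 and 8.22 at week 4. The test of whether irradiation effects differed between weeks gave an adjusted p of 1.00 for Csn3. Over all treatments the difference was 0.54 (adjusted p = 0.0076) without the 2 arrays that stood apart. With covariates for the lymphocyte, muscle, brown fat and luminal lists it was 0.33 and no longer passed (adjusted p = 0.16). At week 12 against week 1 the difference was 0.39 ± 0.17 (adjusted p = 0.079), and without gamma week 1 replicate 1 it was 0.48 (adjusted p = 0.031), without 30 cGy Si week 1 replicate 2 0.45 (adjusted p = 0.049).

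Btn1a1, butyrophilin, is a membrane protein of the milk fat globule that docks the secreted droplet. At week 1 it was at 7.96, 5.66 and 5.04 in gamma glands, 5.37, 6.46 and 6.48 in 30 cGy Si glands, 6.61, 6.61 and 6.51 in 10 cGy Si glands, and 7.38, 7.57 and 6.43 in sham glands. At week 4 it was at 6.94, 8.52 and 7.35 in gamma glands, 6.27, 6.44 and 7.70 in 30 cGy Si glands, 7.41, 7.07 and 7.79 in 10 cGy Si glands, and 5.99, 7.12, 6.54 and 7.09 in sham glands. The lowest values of the series, 5.04 and 5.37, were thus in irradiated glands of week 1, beside a value of 7.96 in another gamma gland of that week. At week 12 Btn1a1 was at 7.18, 7.01 and 7.05 in gamma glands, 6.71, 8.62 and 7.30 in 30 cGy Si glands, 8.04, 7.14 and 7.15 in 10 cGy Si glands, and 6.84, 6.96 and 6.04 in sham glands.

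Btn1a1 did not pass in any comparison of treatments or weeks. Between weeks its differences were 0.62 ± 0.27 at week 4 against week 1 (adjusted p = 0.095) and 0.67 ± 0.28 at week 12 against week 1 (adjusted p = 0.061). Leaving out single arrays moved both past the threshold: without gamma week 1 replicate 1 the differences were 0.84 (adjusted p = 0.0087) and 0.88 (adjusted p = 0.0046), and the week 12 difference also passed without 30 cGy Si week 12 replicate 1 (0.77, adjusted p = 0.033) or sham week 12 replicate 3 (0.74, adjusted p = 0.044). By treatment, the week 12 minus week 1 difference was 0.86 in gamma, 1.44 in 30 cGy Si, 0.87 in 10 cGy Si and -0.51 in sham glands (SE 0.55 each). The week 4 minus week 1 difference in gamma glands was 1.38 ± 0.55 (adjusted p = 0.17), and 2.25 ± 0.51 without gamma week 1 replicate 1 (adjusted p = 0.022). The difference between treatments did not pass (treatment by week F test, adjusted p = 1.00, unadjusted p = 0.15).

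Against sham of the same week, Btn1a1 of irradiated glands had differences below 0 in all 3 comparisons at week 1 and above 0 in all 3 at weeks 4 and 12, with intervals that all included 0. At week 1 the differences were -0.91 in gamma, -1.02 in 30 cGy Si and -0.55 in 10 cGy Si glands (SE 0.55 each). They were 0.92, 0.12 and 0.74 at week 4 (SE 0.52) and 0.47, 0.93 and 0.83 at week 12 (SE 0.55). With single arrays left out they ran from -1.78 to -0.32, from -1.37 to -0.65 and from -0.90 to -0.33 at week 1, the first being the range without gamma replicate 1 and without gamma replicate 3. At week 4 they ran from 0.46 (without gamma replicate 2) to 1.25, from -0.33 (without 30 cGy Si replicate 3; -0.11 without sham replicate 1) to 0.39, and from 0.51 to 0.92. At week 12 they ran from 0.18 (without sham replicate 3) to 0.64, from 0.39 (without 30 cGy Si replicate 2) to 1.34, and from 0.53 (without 10 cGy Si replicate 1) to 1.01. None of these passed. At week 12 Btn1a1 of gamma and of 10 cGy Si glands did not overlap that of sham glands. Of all genes 5.37% and 8.71% did not overlap in those comparisons. Csn3 of 10 cGy Si glands did not overlap that of sham glands at week 12 either. The 3 comparisons of a week share their sham arrays. The median difference of the luminal list from sham was -0.26, -0.23 and -0.32 at week 1 and 0.31, 0.41 and 0.21 at week 4, for gamma, 30 cGy Si and 10 cGy Si glands, and -0.01, 0.01 and 0.01 at week 12. Its sign was that of Btn1a1 in the 6 comparisons of weeks 1 and 4, it was near 0 at week 12, and at week 4 its largest value stood beside the smallest Btn1a1 difference, in 30 cGy Si glands. Over all arrays Btn1a1 correlated with the luminal list mean at r = 0.46 and rho = 0.44 (permutation test, adjusted p = 0.018 and 0.025). Within weeks 1, 4 and 12, r was 0.41, 0.38 and 0.44, and without the 2 farthest arrays 0.42. With the basal list mean Btn1a1 had r = 0.44 and rho = 0.41 (permutation test, adjusted p = 0.021 and 0.035). With the luminal list as a covariate Btn1a1 still passed in no comparison with sham. Its differences in that fit are not given here, and the part of luminal content in them was not judged.

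Lalba, alpha-lactalbumin, which lets the secretory cell make lactose, varied widely among glands of most groups, with an SD from 0.27 in 10 cGy Si glands at week 4 to 1.64 in gamma glands at week 1. At week 1 it was at 6.78, 4.19 and 3.73 in gamma glands, 3.96, 4.89 and 6.11 in 30 cGy Si glands, 5.4, 4.74 and 4.43 in 10 cGy Si glands, and 5.49, 5.99 and 5.03 in sham glands. At week 4 it was at 5.43, 6.11 and 6.38 in gamma glands, 4.19, 4.80 and 7.09 in 30 cGy Si glands, 6.19, 5.82 and 6.35 in 10 cGy Si glands, and 4.02, 6.26, 6.54 and 5.59 in sham glands. The gamma glands alone spanned 3.04 units at week 1 while those of week 4 lay within 1 unit of each other. At week 12 Lalba was at 5.02, 4.14 and 4.57 in gamma glands, 5.51, 6.81 and 5.65 in 30 cGy Si glands, 7.05, 5.03 and 4.60 in 10 cGy Si glands, and 3.80, 4.41 and 5.36 in sham glands.

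Lalba passed in no comparison. The 30 cGy Si and sham glands did not overlap at week 12, where Lalba differed by 1.46 ± 0.75 (95% interval from -0.07 to 3.00, adjusted p = 0.91), and 7.21% of all genes did not overlap in that comparison. Without 30 cGy Si week 12 replicate 2 the difference was 1.05 ± 0.84. The week 4 minus week 1 difference was 0.70 ± 0.37 over all treatments (adjusted p = 0.17) and 0.94 without gamma week 1 replicate 1 (adjusted p = 0.047). Lalba and the luminal list had r = 0.07 over all arrays (permutation test, adjusted p = 0.67).

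**Figure D2:**
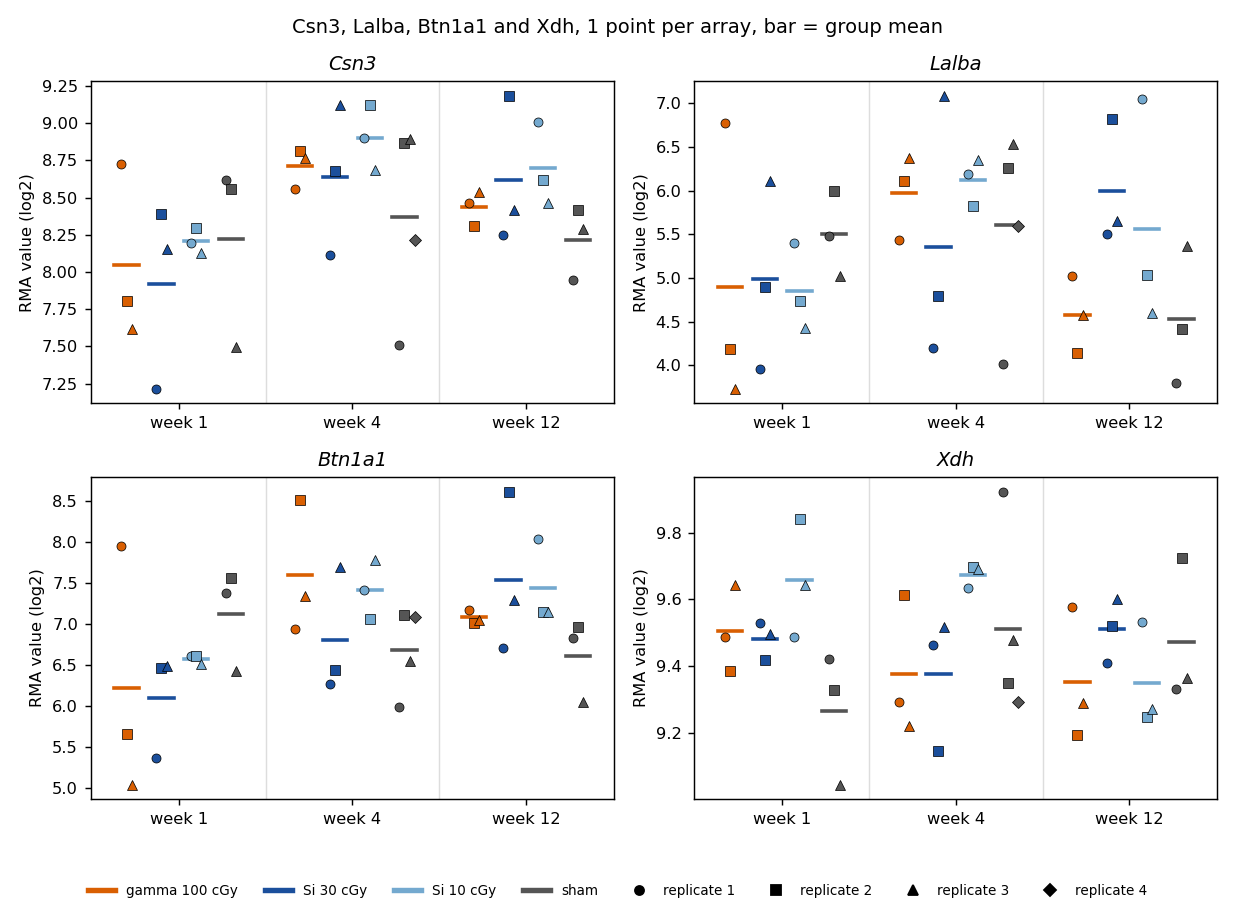
RMA values (log2, vertical axis, a separate scale per gene) of Csn3, Lalba, Btn1a1 and Xdh in each array, by week along the horizontal axis and by treatment (gamma 100 cGy, Si 30 cGy, Si 10 cGy, sham from left to right); marker shapes are replicate numbers and bars are group means. Csn3 points of week 4 lie mostly above those of week 1, Lalba and Btn1a1 scatter widely within groups, and Xdh stays between 9.05 and 9.92.

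Ltf, lactoferrin, the iron-binding protein of milk and of neutrophil granules, passed in more comparisons between weeks than any other of the 10 genes. At week 1 it was at 8.64, 8.36 and 8.54 in gamma glands, 8.19, 8.65 and 8.33 in 30 cGy Si glands, 8.35, 8.78 and 8.73 in 10 cGy Si glands, and 8.64, 8.57 and 7.66 in sham glands. At week 4 it was at 8.66, 9.37 and 9.00 in gamma glands, 9.24, 8.99 and 9.21 in 30 cGy Si glands, 9.27, 8.14 and 8.48 in 10 cGy Si glands, and 7.97, 8.41, 8.37 and 8.49 in sham glands. No week 1 array reached 9 and 5 of the 13 week 4 arrays were at 9.00 or above. At week 12 Ltf was at 10.65, 7.89 and 8.90 in gamma glands, 9.52, 10.38 and 10.09 in 30 cGy Si glands, 9.75, 9.65 and 10.25 in 10 cGy Si glands, and 9.99, 10.17 and 9.44 in sham glands. Of the 12 week 12 arrays, 10 thus stood above every array of weeks 1 and 4, and the other two were both gamma glands.

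Over the 4 treatments Ltf averaged 8.45 ± 0.31 at week 1, 8.74 ± 0.47 at week 4 and 9.72 ± 0.75 at week 12 (SD, n = 12, 13 and 12). It was higher at week 12 than at week 1 by 1.27 ± 0.20 on the log2 scale (SE), a 2.41-fold difference with a 95% interval from 1.82 to 3.21 (limma, adjusted p = 1.51e-05). Against week 4 the week 12 level was higher by 0.95 ± 0.20, or 1.93-fold (adjusted p = 0.011). Ltf was again the 1 gene of 7 that passed in each, where 35.5% of all genes passed at week 12 against week 1 (15.2% upwards) and 1.64% at week 12 against week 4 (0.698% upwards). At week 4 against week 1 the difference was 0.32 ± 0.20 (adjusted p = 0.24). Ltf also passed the test of any difference among the 12 groups (adjusted p = 0.0037), which 15.8% of all genes passed and none of the other 6 tested milk genes did. With the covariates for the lymphocyte, muscle, brown fat and luminal lists Ltf no longer passed that test (adjusted p = 0.087).

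Within treatments, Ltf at week 12 against week 1 was higher by 1.61 in 30 cGy Si (adjusted p = 0.014), 1.26 in 10 cGy Si (adjusted p = 0.045) and 1.57 in sham glands (adjusted p = 0.022), where 6.95%, 9.09% and 5.12% of all genes passed (1.68%, 3.58% and 1.65% upwards), with an SE of 0.40 in each. In gamma glands the difference was 0.64 ± 0.40 (adjusted p = 0.40; 5.74% of all genes passed, 1.81% upwards), and it turned on single arrays of week 12: it was -0.12 ± 0.33 without replicate 1 (adjusted p = 0.90) and 1.27 ± 0.37 without replicate 2 (adjusted p = 0.049). Each of the 3 calls within a treatment was lost when some single arrays were left out, with no change of direction. In 10 cGy Si glands it was lost without any 1 of the 6 arrays (differences from 1.08 to 1.38, adjusted p from 0.076 to 0.17). In 30 cGy Si glands it was lost without replicate 1 of week 1 or replicate 2 or 3 of week 12 (from 1.42 to 1.56, adjusted p from 0.059 to 0.081). In sham glands it was lost without replicate 3 of week 1 or replicate 1 or 2 of week 12 (from 1.26 to 1.51, adjusted p from 0.066 to 0.11). The treatment by week test, which asks whether these differences differ, gave an adjusted p of 1.00 and an unadjusted p of 0.20. Without the 2 arrays that stood apart, the difference over all treatments was 1.19 (adjusted p = 4.29e-05).

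Marker lists that could carry Ltf were set beside it. Of 20 neutrophil genes 17 were matched, and 6 of those passed the limit: Mmp9, Elane, Csf3r, Prtn3, Padi4 and S100a9, with means from 4.08 to 6.73. The other 11, S100a8, Ngp, Camp, Mpo and Cxcr2 among them, had means from 2.54 to 3.90, though Cxcr2 reached 5.92 and Ngp 5.04 in single arrays. The mean of the 17 ran from 3.72 to 4.05 at week 1, from 3.77 to 4.41 at week 4 and from 3.78 to 4.06 at week 12. Of the 6 tested, Mmp9, a matrix protease that other cells also make, was higher at week 12 than at week 1 by 0.64 and Prtn3, a granule protease, was lower by 0.38. The part of neutrophils in the Ltf values was not tested. Among the 18 luminal genes Krt7, Cldn7 and Epcam were higher at week 12 than at week 1 and Foxa1 was lower. Of all genes 35.5% passed in that comparison, 15.2% upwards. Ltf correlated with the luminal list mean at r = 0.92 within week 4 but at 0.49 within week 1 and -0.06 within week 12, and at 0.38 over all arrays (rho = 0.42, permutation test, adjusted p = 0.043 and 0.035). The basal list mean gave 0.78 within week 4, 0.59 within week 1 and 0.07 within week 12. Over all arrays it gave r = 0.40 (rho = 0.40, permutation test, adjusted p = 0.035 and 0.039). With the luminal list as a covariate the week 12 minus week 1 difference of Ltf was 1.19, and with the 4 tissue lists it was 1.06 (adjusted p = 5.83e-05 and 0.0024).

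**Figure D3:**
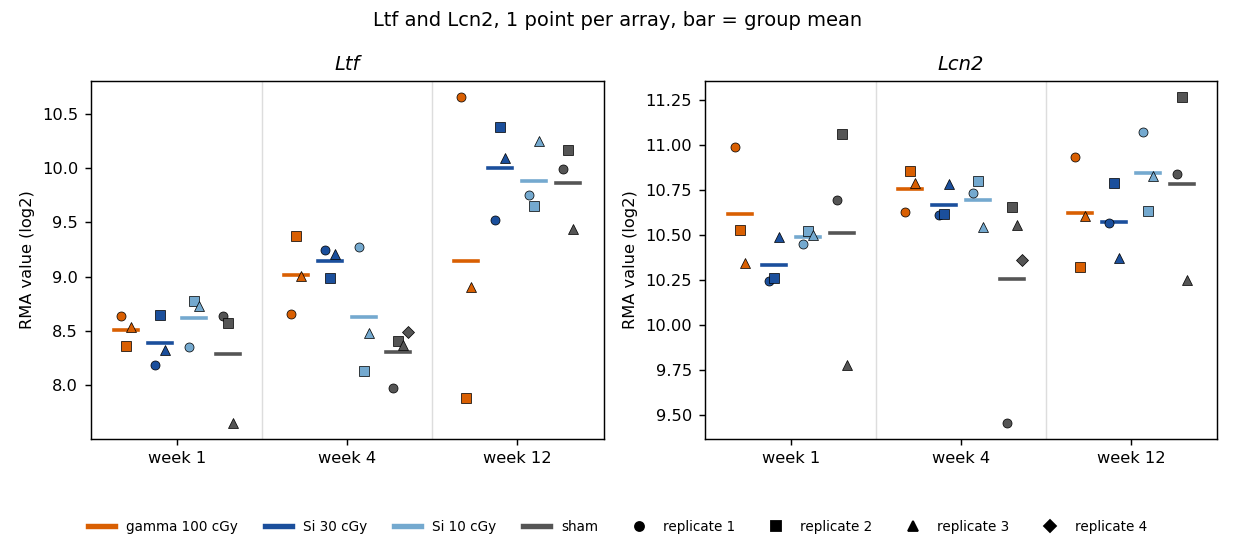
RMA values (log2, vertical axis, a separate scale per gene) of Ltf and Lcn2 in each array, by week along the horizontal axis and by treatment (gamma 100 cGy, Si 30 cGy, Si 10 cGy, sham from left to right); marker shapes are replicate numbers and bars are group means. Ltf lies between 7.66 and 8.78 at week 1 and mostly above 9.4 at week 12, with gamma week 12 replicates 2 and 3 at 7.89 and 8.90, while Lcn2 shows no such shift.

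Lcn2, lipocalin 2, which binds bacterial iron carriers and is known for its rise in stressed or regressing mammary epithelium, passed in no comparison. It averaged 10.49 ± 0.34 at week 1, 10.57 ± 0.36 at week 4 and 10.71 ± 0.31 at week 12 (SD, n = 12, 13 and 12). Its week 12 minus week 1 difference was 0.22 ± 0.14, with a 95% interval from -0.06 to 0.50 (adjusted p = 0.22). The highest values were 11.27 in sham week 12 replicate 2 and 11.07 in 10 cGy Si week 12 replicate 1, and the lowest were 9.46 and 9.78 in the 2 sham arrays that stood apart. Lcn2 followed the epithelial lists, with r = 0.61 and 0.75 for the luminal and basal lists (rho = 0.53 and 0.67, permutation test, adjusted p of r = 8e-04 and 2e-04), and r = 0.51 and 0.56 without the 2 farthest arrays.

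Xdh, xanthine oxidoreductase, binds butyrophilin at the fat globule membrane and is also an enzyme of purine breakdown made in many cell types. It varied least, from 9.05 to 9.92 over the 37 arrays, with weekly means of 9.48, 9.49 and 9.42. The week 12 minus week 1 difference was -0.05 ± 0.07, with a 95% interval from -0.21 to 0.10. At week 1 the 10 cGy Si glands, at 9.49, 9.84 and 9.64, all lay above the sham glands, at 9.42, 9.33 and 9.05. The difference of 0.39 ± 0.15 did not pass (adjusted p = 0.70), and 11.8% of all genes did not overlap in that comparison. Csn1s1 and Wap did not overlap there either, and both were lower in the 10 cGy Si glands than in sham glands.

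None of the 10 genes passed in any of the 13 comparisons of irradiated with sham glands, that is each irradiation at each week, each over the 3 weeks, and all irradiations together. Of these 130 tests by limma, 3 had an unadjusted p under 0.05, and the smallest adjusted p was 0.45. The 3 were Xdh in 10 cGy Si glands at week 1, Csn1s1 in gamma glands at week 4, by 2.21 ± 1.01, and Ltf in 30 cGy Si glands at week 4, by 0.84 ± 0.38. Over all genes, 0.0228%, 0.0228% and 0.0835% passed at week 1 in gamma, 30 cGy Si and 10 cGy Si glands, 0.0304% in 30 cGy Si glands over the 3 weeks, and 0% in the other 9. At an unadjusted p under 0.05 the shares of all genes were 5.4%, 5.56% and 8.08% in the 3 comparisons named. Without gamma week 4 replicate 2 the Csn1s1 difference was 0.23 ± 0.86, and that of Csn2 was -0.16 ± 0.55 in place of 1.22 ± 0.68.

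Intervals of these differences were widest for Csn1s1 and narrowest for Xdh. Over the 3 weeks, all irradiations against sham differed by 0.17 in Csn2 (95% interval from -0.51 to 0.84), 0.37 in Csn1s1 (from -0.64 to 1.38), 0.11 in Csn1s2a (from -0.44 to 0.67) and -0.06 in Wap (from -0.40 to 0.28). The same comparison gave 0.19 in Csn3 (from -0.13 to 0.52), 0.16 in Lalba (from -0.54 to 0.86), 0.17 in Btn1a1 (from -0.35 to 0.69) and 0.22 in Ltf (from -0.16 to 0.59). For Lcn2 it was 0.10 (from -0.15 to 0.36) and for Xdh 0.06 (from -0.08 to 0.20). The interval of Csn1s1 included a 2-fold difference, 1 unit on this scale, and that of Xdh did not. The median of the 7 tested genes was 0.17, where that of all genes was 0.02.

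At week 4 the differences of Ltf from sham were 0.70 in gamma, 0.84 in 30 cGy Si and 0.32 in 10 cGy Si glands (SE 0.38 each). The 10 cGy Si difference was 0.00 ± 0.41 without 10 cGy Si week 4 replicate 1, while leaving out single arrays left the gamma difference between 0.52 and 0.88 and the 30 cGy Si difference between 0.73 and 0.92. The gamma and the 30 cGy Si glands did not overlap the sham glands, as 3.92% and 8.01% of all genes did not in those comparisons. None of the 3 passed (adjusted p = 0.80, 0.59 and 1.00). At week 12 the differences of Ltf were -0.72, 0.13 and 0.02 (SE 0.40), and none passed. The gamma difference was -1.47 ± 0.33 without gamma week 12 replicate 1 (adjusted p = 0.43) and -0.09 ± 0.37 without gamma week 12 replicate 2. Without sham week 12 replicate 3 the 30 cGy Si and 10 cGy Si differences were -0.08 and -0.20. The luminal list, which followed Ltf closely at week 4, had its own week 4 median differences given above.

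Dose and kind of radiation were compared over the 3 weeks. At 30 cGy against 10 cGy of Si the differences ran from -0.33 ± 0.32 in Btn1a1 to 0.47 ± 0.62 in Csn1s1, and none of the 10 passed, while 0.0228% of all genes did. Between 30 cGy of Si and 100 cGy of gamma rays, 2 radiations given at different doses, they ran from -0.63 ± 0.62 in Csn1s1 to 0.29 ± 0.43 in Lalba, and none passed, while 0.00759% of all genes did. At an unadjusted p under 0.05 none of the 10 stood out in either comparison, against 6.51% and 13.5% of all genes.

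**Figure D4:**
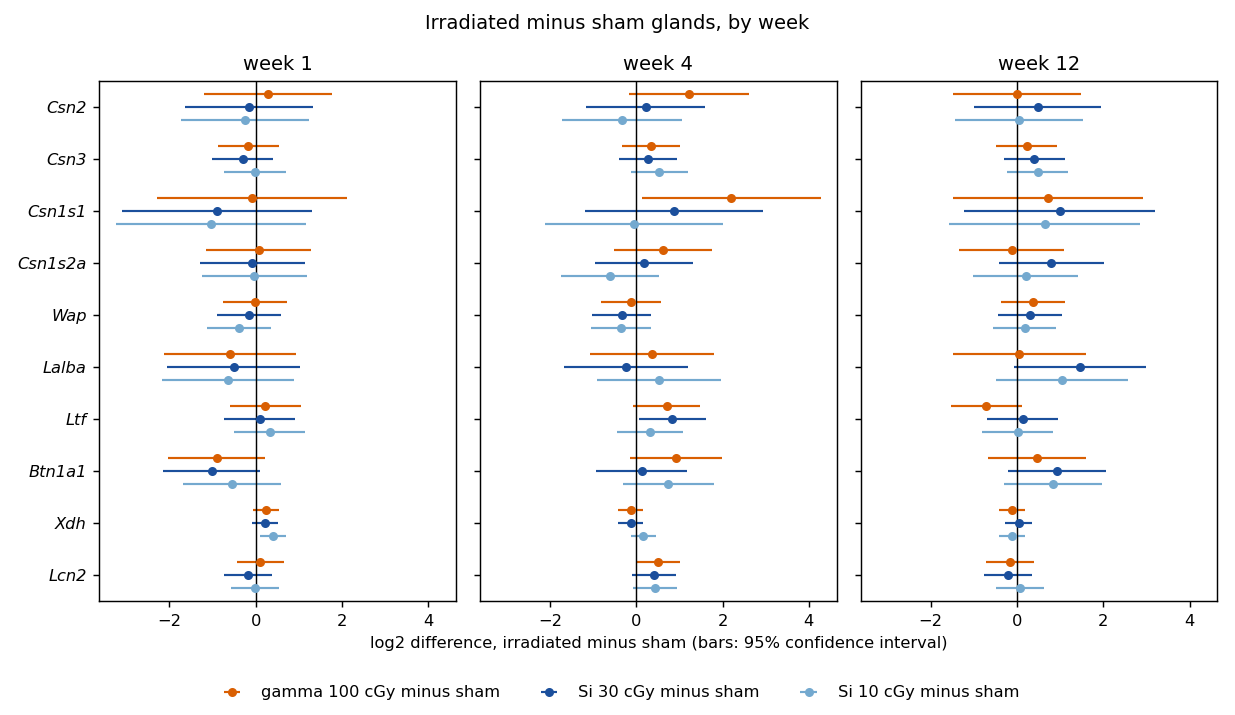
Log2 differences of irradiated minus sham glands (horizontal axis) for the 10 genes at weeks 1, 4 and 12 (panels); points are the fitted differences for gamma 100 cGy, Si 30 cGy and Si 10 cGy and bars their 95% confidence intervals. Intervals that leave out 0 are those of Xdh for 10 cGy Si at week 1 and of Csn1s1 for gamma and Ltf for 30 cGy Si at week 4, none of which passed after adjustment.

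The groups explained little of the variation of most of these genes. Between-group differences held 67.1% of the variance of Ltf over the arrays, 40.3% of that of Btn1a1, 37.8% for Xdh and 37.4% for Csn3, and from 17.7% (Wap) to 29.9% (Lalba) for the rest, where the median of all tested genes was 39.6%. These shares are not corrected for having 12 groups over 37 arrays, so genes without any group difference also reach a sizeable share. The spread between arrays of the same group was large: the residual SD was 0.98 for Lalba, 0.94 for Csn2, 0.72 for Btn1a1, 0.52 for Ltf and 0.45 for Csn3, against a median of 0.196 over all tested genes. By that spread Lalba, Csn2 and Btn1a1 stood at percentiles 98.9, 98.8 and 98.0 of all tested genes, and Xdh, with 0.18, at 42.9.

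Across the 37 arrays the milk genes fell into pairs that varied together and pairs that did not. Of 45 pairs, 12 had an adjusted p under 0.05 by Pearson's r and 19 by Spearman's rho (permutation tests with 100000 resamples). The resamples shuffled all 37 arrays without regard to week or treatment, so a shift between weeks that 2 genes share can add to a small p. Csn2 and Csn1s1 had r = 0.87 and rho = 0.81, and r = 0.83 without the 2 farthest arrays, with r = 0.80, 0.93 and 0.83 within weeks 1, 4 and 12 (permutation p of r and of rho = 1e-05, the smallest the resamples can give). Csn2 and Csn1s2a had r = 0.90 and rho = 0.48, but r = 0.20 within week 1, where Csn1s2a was low in all 12 arrays, and 0.96 and 0.95 within weeks 4 and 12. Csn1s1 and Csn1s2a had r = 0.81, which became 0.44 without the 2 farthest arrays. Wap was related to these caseins by rank, with rho = 0.61 for Csn2, 0.53 for Csn1s1 and 0.40 for Csn1s2a (permutation test, adjusted p = 0.00026, 0.0043 and 0.037). Its r was 0.54, 0.31 and 0.49 and did not pass (permutation test, adjusted p = 0.075, 0.10 and 0.075). For Csn2 and Csn1s1 that r was 0.72 and 0.83 within week 1, 0.52 and 0.19 within week 4, and 0.33 and 0.43 within week 12.

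Csn3, Lalba and Btn1a1 varied together. Csn3 and Lalba had r = 0.77 and rho = 0.78, Csn3 and Btn1a1 r = 0.79 and rho = 0.78, and Lalba and Btn1a1 r = 0.72 and rho = 0.71 (permutation p = 1e-05 each). Within weeks 1, 4 and 12, r was 0.74, 0.82 and 0.81 for Csn3 and Lalba, 0.86, 0.59 and 0.85 for Csn3 and Btn1a1, and 0.88, 0.72 and 0.65 for Lalba and Btn1a1. Csn2 and Csn3 had r = 0.20 and rho = 0.32 (permutation test, adjusted p = 0.39 and 0.13), and r = 0.36 without the 2 arrays that stood apart. Csn1s1 was related to the group as well, with r = 0.38 and rho = 0.47 with Csn3 (adjusted p = 0.062 and 0.012) and r = 0.63 and rho = 0.49 with Btn1a1 (adjusted p of rho = 0.0084). Csn2 and Btn1a1 had r = 0.45 and rho = 0.44 (adjusted p of r = 0.024). Lalba had r = 0.79 with Csn2 and 0.73 with Csn1s1 within week 1, but -0.14 and 0.12 within week 4.

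Lcn2 correlated with Csn3 at r = 0.65, with Btn1a1 at 0.58 and with Ltf at 0.56 (rho = 0.64, 0.70 and 0.56; adjusted p of r at most 0.00077). Within week 12 these were 0.30, 0.41 and 0.57, on 12 arrays. Xdh correlated with none of the other genes after adjustment, its largest r over all arrays being 0.34 with Wap. That r was -0.01 without the 2 arrays that stood apart.

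**Figure D5:**
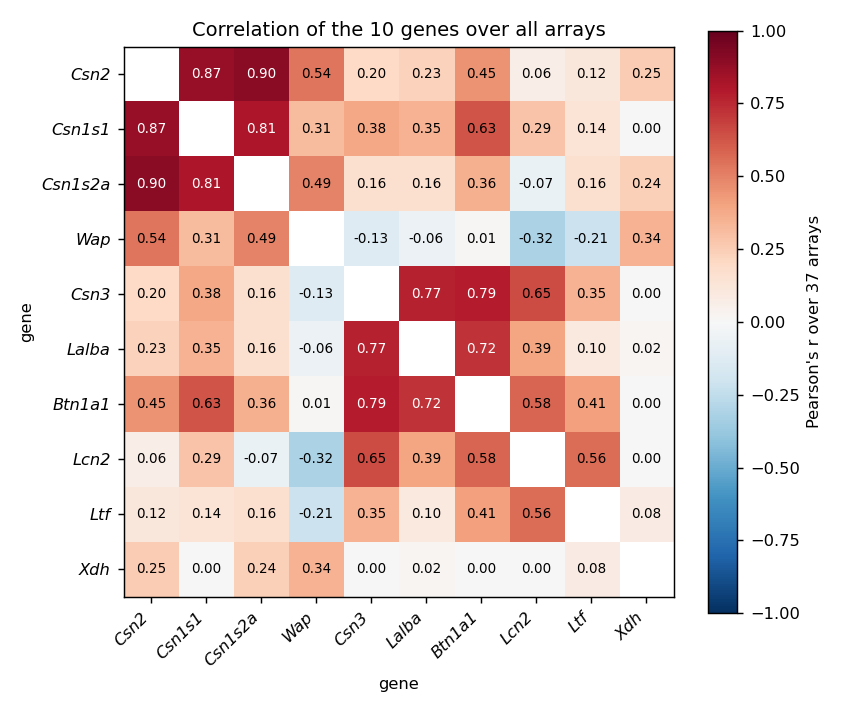
Pearson's r over the 37 arrays for each pair of the 10 genes (rows and columns are genes, the colour scale runs from -1 to 1 and each cell prints its r). Csn2, Csn1s1 and Csn1s2a form a block at 0.81 to 0.90 and Csn3, Lalba and Btn1a1 a block at 0.72 to 0.79, with 0.20 between Csn2 and Csn3.

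The 8 other genes most like the caseins were named by their r with the mean deviation of Csn2, Csn3, Csn1s1 and Csn1s2a over the 37 arrays. They were Scnn1g, a subunit of the epithelial sodium channel, at 0.70, the nucleoside transporter Slc28a3 at 0.65, the desmosome protein Pkp3 at 0.64, Slc35f3 at 0.63, Olfr550, Sorcs1 and the proton pump subunit Atp6v1b1 at 0.62, and Adgrl3 at 0.61. All 8 were lower, from 0.30 (Adgrl3) to 0.52 (Slc35f3), without gamma week 4 replicate 2 and 30 cGy Si week 12 replicate 2. Those 2 glands carry part of the likeness.

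Further genes of milk secretion were looked at beside the 10. Of 30 further genes of milk proteins, transport and fat synthesis, 28 were matched and 24 tested; 4 were higher at week 4 than at week 1, 5 at week 12 than at week 1, 1 at week 12 than at week 4, and none was lower, where 11%, 15.2% and 0.698% of all genes were higher in those comparisons. Wfdc18, a secreted protein of the whey acidic protein family, was higher by 1.41 ± 0.25 at week 4 against week 1, by 1.00 ± 0.25 at week 12 against week 4 and by 2.41 ± 0.25 at week 12 against week 1 (adjusted p = 9.65e-05, 0.034 and 3.57e-08). Muc15, a mucin of the fat globule membrane, was higher by 1.39 ± 0.24 and Muc1, another, by 0.54 ± 0.16 at week 12 against week 1. Thrsp, which acts in fat synthesis, was higher by 0.84 ± 0.27, and Ceacam10 by 0.44 ± 0.13, in the same comparison, while Slc5a1, a sodium and glucose cotransporter, was higher by 0.34 ± 0.12 at week 4 against week 1. The median difference of the 24 at week 12 against week 1 was 0.09, where that of all genes was -0.02. None of the 24 passed in a comparison with sham.

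The prolactin and STAT5 list held 25 genes, of which 24 were matched and 23 tested. At week 12 against week 1, 6 were higher and 4 lower, that is 10 of 23, where 35.5% of all genes passed. The transcription factors Stat5a and Stat5b were lower by 0.34 each (SE 0.07 and 0.08), as were Akt1, a kinase that supports secretory differentiation, by 0.27 and the cytokine signal inhibitor Socs1 by 0.26. The receptors Kit, Erbb4 and Ghr were higher by 0.56, 0.46 and 0.19, and the transcription factors Ehf, Id2 and Nr3c1 by 0.61, 0.44 and 0.17. At week 4 against week 1, Id2 and Nr3c1 were higher and Stat5b, Socs3, Cebpb and Akt1 lower, where 25.8% of all genes passed. None of the 23 passed at week 12 against week 4 (limma), where 1.64% of all genes did. None passed against sham. Cish, a direct STAT5 target, differed from sham by 1.03 ± 0.33 in 30 cGy Si glands at week 12 (adjusted p = 0.91).

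The list of acute-phase and regression genes, which Ltf and Lcn2 are often measured with, held 20 genes, of which 18 were matched and 15 tested. At week 12 against week 1, 3 were higher and 2 lower, a share no larger than the 35.5% of all genes that passed. The lipopolysaccharide receptor Cd14 was higher by 0.74 ± 0.14, the copper carrier Cp by 0.58 ± 0.07 and the plasma protein Orm1 by 0.50 ± 0.19, while Lrg1 was lower by 0.86 ± 0.20 and the transcription factor Cebpd by 0.42 ± 0.14. The median difference of the 15 was 0.00. At week 4 against week 1, where 25.8% of all genes passed, Cp was higher by 0.30 and Bcl3 lower by 0.55. At week 12 against week 4, where 1.64% of all genes passed, Cp alone did, by 0.28.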

How the data were processed

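Total RNA of 37 mammary samples was measured on Affymetrix arrays, 1 per sample. The deposited table holds log2 expression values for 35556 probe sets, made by the authors with RMA (oligo), as the submitters' processing notes state; versions, genome build and detection calls are not given in the sources used here, so it is unknown which low values lie above background, and the number of arrays limits the precision. RMA summarises and quantile-normalises all arrays together. Differences between low values may be compressed in such a table. Of 23099 annotated probe sets, 21218 had 1 symbol and 1881 several, and 12457 were not listed; genes were named from those with 1 symbol, by the highest mean. limma 3.58.1 in R 4.3.3 fitted 12 group means over all arrays (25 residual degrees of freedom), with Benjamini-Hochberg adjustment over the 13174 genes tested and genes with an adjusted p below 0.05 were taken as passing; Csn1s1, Csn1s2a and Wap come from the same fit over all 18820 genes. The fit was tested on simulated data. Correlations, permutation tests and figures used Python 3.11.15 with scipy 1.17.1. The permutation tests, those with the epithelial lists included, shuffled all 37 arrays without regard to week or treatment. The text names all 10 genes and, from each further list, those that passed, or otherwise at most 4 with large differences. Cish and the genes most like Ltf and Csn3 were chosen after their values were seen. Members and lists were chosen with earlier results of these data known. Alternatives were filters, probe set choice, quantile normalization, robust variances, array weights, a replicate block, tissue covariates and leaving out arrays. Each of the 10 genes had 1 probe set, so probe set choice could not change their own values. Quantile normalization repeats a step of RMA, so little change was to be seen there.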

Additional observations from a re-analysis of the deposited data

Results flagged for a closer look

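Values of sham week 4 replicate 1 lay far from the other 3 arrays of its group for Csn1s2a and Wap. Csn1s2a was at 5.02 there and at most 2.91 in the other 3, and Wap was at 6.10 there and at most 3.77 in the other 3. The gap to the nearest array divided by the group's range was 0.922 for Csn1s2a and 0.91 for Wap, against a critical value of 0.829. Sham at week 4 was the only group with 4 arrays, so 10 such sets of values, 1 for each gene, were looked at, and chance alone flags about 1 in 20. The 10 sets come from the same 4 arrays and are not separate. Replicate 1 was the farthest array for every gene, with ratios from 0.495 (Btn1a1) to 0.922.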

How the results depend on the processing

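Of 18 planned comparisons and 2 F tests, calls of the 10 genes changed under 2 settings. With covariates for the mix of tissues, 0 genes passed at week 4 against week 1 and 0 passed among the 12 groups, each in place of 1 (Csn3 and Ltf). With array weights, 2 passed at week 12 against week 1 in place of 1. Leaving out single arrays gave 1 to 3 at week 4 against week 1, 1 to 3 at week 12 against week 1 and 1 to 2 among the 12 groups. It left Csn3 at week 4 against week 1 between 0.46 and 0.64 (adjusted p at most 0.040), Ltf at week 12 against week 1 between 1.08 and 1.43 (at most 4.97e-05) and Ltf at week 12 against week 4 between 0.76 and 1.11 (at most 0.027). In these results no direction turned. The cause of these changes was not tested.

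Counts over all genes moved more: 3 in 30 cGy Si glands at week 1 became 0 to 410, 3 in gamma glands at week 1 0 to 37, 11 in 10 cGy Si glands at week 1 0 to 88, 4 in 30 cGy Si glands over the 3 weeks 0 to 305, 3 between the Si doses 2 to 18, 1 between Si and gamma rays 0 to 254, 216 at week 12 against week 4 99 to 718, and 2086 among the 12 groups 1769 to 4827. In those at 0, the highest counts were 6, 31 and 6, in 30 cGy Si glands at weeks 4 and 12 and in all irradiations together.

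Replicate numbers did not pair the samples as a whole: 54 same-number correlations had a median of 0.02, from -0.46 to 0.65, with 21 over 0.1. At week 1 those of numbers 2 and 3 were all positive, from 0.06 to 0.65, while those of number 1 ran from -0.20 to 0.10. What the week 1 samples of a number share was not tested. In 1 of 18 pairs of groups, 10 cGy Si and sham at week 4, every number was over 0.1, and with the replicate block 0 of the tested milk genes passed there, as without it. With the replicate block the differences were 0.57 in Csn3 at week 4 against week 1 and 1.27 and 0.96 in Ltf at week 12 against weeks 1 and 4, and no call changed. The block gave each number the same shift in all weeks, so it does not test a pairing within week 1. Low casein values limit what can be said of Csn2, Csn1s1, Csn1s2a and Wap, since no detection calls were used here. The comparisons of weeks within single treatments, with arrays left out in turn, and the fit without 2 arrays were chosen after seeing the data.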

Other observations

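Genes outside milk secretion that varied most like Ltf and Csn3 over the 37 arrays were looked up after the values were seen. For Ltf they were Selp, P-selectin of endothelium and platelets, at r = 0.82, Ackr1, a chemokine-binding receptor of venules, at 0.79, Capsl at 0.74 and Bbox1, the last enzyme of carnitine synthesis, at 0.73. Without gamma week 12 replicate 1 and 30 cGy Si week 12 replicate 2 these were 0.76, 0.73, 0.72 and 0.70. For Csn3 they were the chloride channel protein Clic6 at 0.78, the peptide hormone Cck at 0.70, the glycolytic enzyme Aldoc at 0.69 and Atp6v1b1 at 0.68, and 0.72, 0.64, 0.60 and 0.58 without 30 cGy Si week 1 replicate 1 and sham week 1 replicate 3. The arrays share weeks and tissue mix, and these values are descriptions with no test.

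Vessel and fat genes were looked at too, in the comparison where 35.5% of all genes passed. Of 15 endothelial genes, 8 were lower and 1 was higher at week 12 than at week 1, with Robo4, a receptor of vessel walls, lower by 1.01 ± 0.07, and Emcn the higher one at 0.21 ± 0.07. Of 14 tested fat cell genes, 6 were lower and none higher, among them Plin4 by 0.58 ± 0.06 and Lipe, hormone-sensitive lipase, by 0.51 ± 0.06.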
